A study of Mus musculus with 12 samples.

Results

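The S100 family consists of small calcium-binding proteins with a pair of EF-hand loops, which act inside the cell on cytoskeletal and membrane-bound partners and, once released, on receptors of neighbouring cells. S100a8 and S100a9 form the heterodimer calprotectin, one of the most abundant proteins of the neutrophil cytosol, whereas S100a4, S100a6 and S100a10 are found in many cell types. The 9 genes S100a1, S100a4, S100a6, S100a8, S100a9, S100a10, S100a11, S100a13 and S100a16 were chosen by name, with the difference between mutant and wild-type cells already known for these arrays. A gene was kept where the platform annotation gave a probe set to it and to no other symbol. This held for 8 of the 9 genes, with 12 probe sets, out of 18193 genes and 45037 probe sets on the array. The probe set of S100a11 carries 2 further symbols and was therefore not described. For each gene the probe set of highest average signal leads the description, and the remaining 4 probe sets serve as checks.

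The mice carry the knock-in mutation Q202L in PU.1 (Spi1), an Ets factor required for the myeloid lineages. The mutant protein still binds DNA but no longer binds c-Jun. KI cells came from homozygous mutants and WT cells from their wild-type littermates, both recorded as strain C57Bl/6 by the sample records and as a mixed strain by the methods, and heterozygous parents were crossed to obtain them. Livers were taken around birth according to the records and from fetuses according to the text of the study. ST-HSC, short-term hematopoietic stem cells, were sorted as lin- Sca-1+ c-kit+ CD150- cells. They are CD48+ in the sample records and CD48- in the series title and the study. GMP, granulocyte-macrophage progenitors, were sorted as lin- Sca-1- c-kit+ cells high in CD16/32 and positive for CD34. The corresponding mutant cells, called GMP in the records and GMP-like in the study, had intermediate CD34 according to the study. Each of the 4 combinations of genotype and population had 3 arrays, and no treatment was given. The animals behind the replicates are not named, so that a p-value here reflects only how these samples vary, possibly for technical reasons.

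The values are log2 RMA values, in which 1 unit is a doubling of the signal. Replicates of a group correlated at 0.963 to 0.990 across probe sets. The array medians were 5.00 to 5.10 in ST-HSC and 4.70 to 4.79 in GMP, so levels of the 2 populations are given side by side and the difference between them was not tested. Spi1 itself, measured by a probe set that does not distinguish the mutant allele, was 7.89 to 8.18 in ST-HSC and 7.95 to 8.95 in GMP. Its KI minus WT difference did not pass the test in either population (limma, adjusted p = 0.798 in ST-HSC and 0.384 in GMP). Of the sort markers, Cd34 was lower by 1.41 in KI ST-HSC and by 2.87 in KI GMP on the log2 scale (limma, adjusted p = 0.00103 and 6.98e-06). The KI GMP cells were sorted with intermediate CD34 according to the study, so the GMP difference is not independent of the sort. Slamf1 (CD150) and Fcgr3 (CD16) were higher in KI ST-HSC, by 1.92 and 1.68 (limma, adjusted p = 0.00132 and 0.00165). Fcgr2b (CD32) had differences of -1.30 in ST-HSC and -2.13 in GMP that were not called (limma, adjusted p = 0.397 and 0.109). Of 8 measured PU.1, AP-1 and C/EBP factors, Cebpa was higher in KI ST-HSC, by 1.21, and Jund in KI GMP, by 0.91 (limma, adjusted p = 0.0305 and 0.0137). Of 6 hepatocyte markers, Afp was lower in KI in both populations. Xist, transcribed from the inactive X chromosome of females, was 10.67 to 11.74 in replicates 1 and 3 of both WT groups and at most 3.78 on all other arrays. In RNA of sorted cells, fewer cells of a type and less RNA per cell cannot be told apart.

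A single gene of the family passed the test in each population, and both were higher in KI, S100a16 in ST-HSC, by 3.55 on the log2 scale, and S100a10 in GMP, by 0.64. S100a8 and S100a9, the granulocyte members, did not pass the test in either population, nor did S100a1, S100a4, S100a6 and S100a13. KI minus WT differences were fitted with limma on all 12 arrays and called where p, adjusted by Benjamini and Hochberg's method for all probe sets, was under 0.05. In ST-HSC 1 of 8 members was called higher, where 1.33% of all genes were, and 0 of 8 lower, against 1.68%. In GMP 1 of 8 was called higher, against 1.19% of all genes, and 0 of 8 lower, against 1.4%. The difference between the 2 populations, GMP minus ST-HSC, was called for 0 of 8 members, against 0.0275% of all genes called higher and 0.022% lower. At an unadjusted p under 0.05 in limma, 0 members were lower in either population, and S100a6 joined S100a10 among those higher in GMP. The difference of the populations then counted S100a10, higher, and S100a16, lower. SAM, a permutation-based method used by the study, called 0 members in either direction. The median KI minus WT difference of the 8 leading probe sets was 0.10 in ST-HSC, where that of all genes was -0.017, and 0.27 in GMP, where that of all genes was -0.034. With 8 genes chosen with results known, these shares and medians describe the list only.

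**Figure D1:**
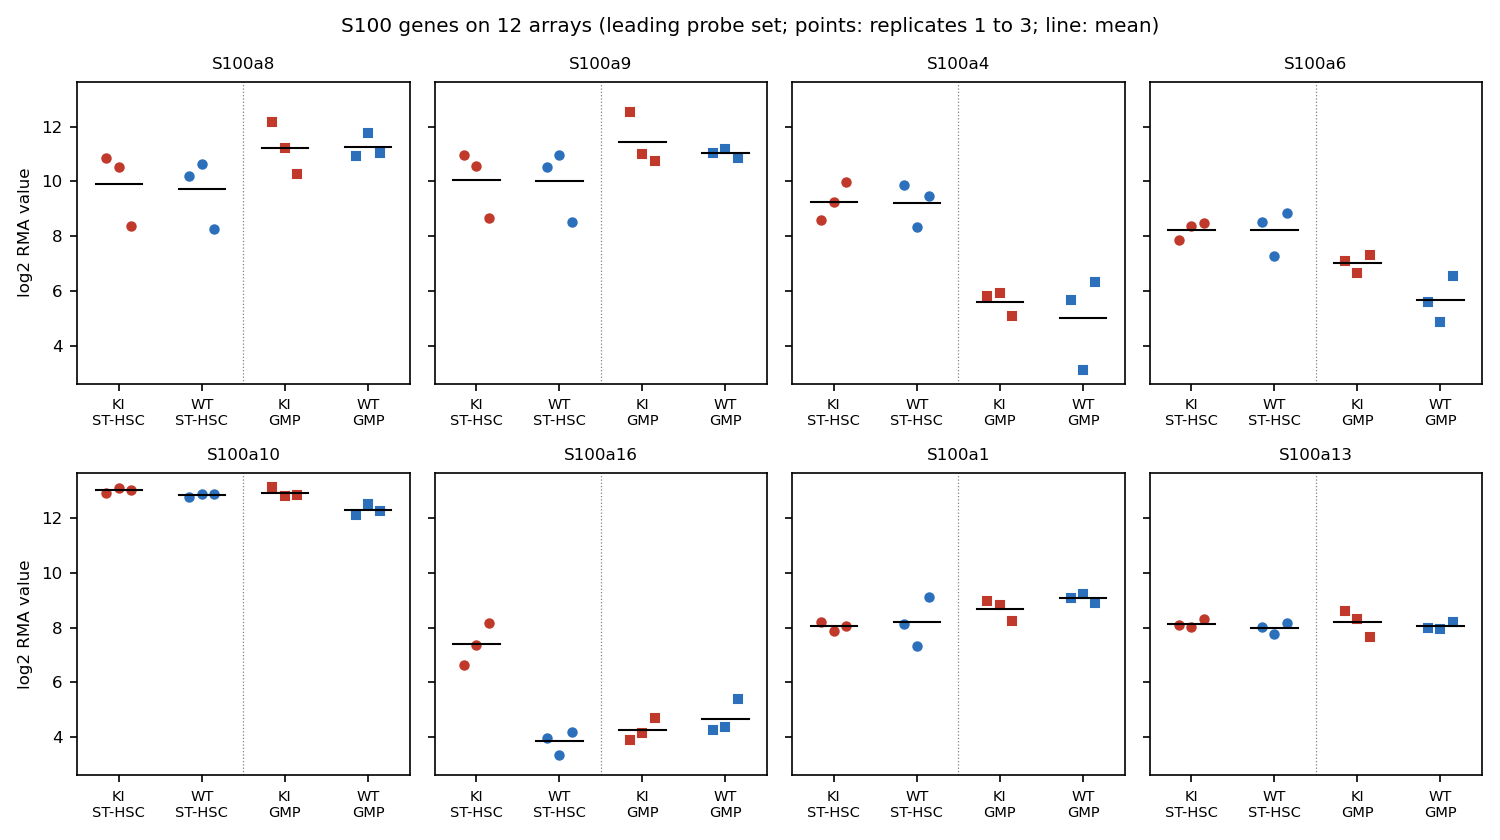
Log2 RMA values of the leading probe set of each S100 gene on the 12 arrays, with 3 replicates (points, in the order 1 to 3) and their mean (line) in KI (red) and WT (blue) ST-HSC (circles) and GMP (squares). S100a16 is 6.65 to 8.18 in KI ST-HSC and at most 5.39 on every other array, and replicate 3 of both ST-HSC groups is the lowest for S100a8 and S100a9.

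S100a16 was the member with the largest difference. It is a widely expressed S100 protein that binds calcium weakly. Its leading probe set, 1447676_x_at, read 6.65, 7.37 and 8.18 in the 3 KI ST-HSC arrays and 3.98, 3.37 and 4.21 in the 3 WT ST-HSC arrays. In KI GMP it read 3.89, 4.16 and 4.69, and in WT GMP 4.27, 4.36 and 5.39. All KI ST-HSC arrays thus lay above all WT ST-HSC arrays, and the GMP groups overlapped. The mean of KI ST-HSC was 7.40 ± 0.77 (SD, n = 3) and that of WT was 3.85 ± 0.44 (SD, n = 3). The difference of 3.55 (SE 0.42, 95% confidence interval 2.62 to 4.48) is a fold of 11.7 (limma, adjusted p = 0.00157). In GMP the difference was -0.42, with an interval from -1.36 to 0.51 (limma, adjusted p = 0.75).

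The WT ST-HSC level lay at percentiles 19.7 to 37.8 of the probe sets of its array and the KI ST-HSC level at 67.4 to 81.5. In both GMP groups the range was 35.6 to 58.9. No detection calls were used, so the WT ST-HSC signal was not shown to be above background, and the size of the fold depends on it. The GMP signals of both genotypes were not shown to be above background either. The GMP difference and the difference between the populations carry the same limit. A set name ending in _x_at marks probes that can also match other transcripts. The second probe set, 1425560_a_at, read 5.79, 6.04 and 7.05 in KI ST-HSC and 3.79, 3.69 and 4.64 in WT ST-HSC, again with no overlap. Its difference of 2.25 (SE 0.34) was called as well (limma, adjusted p = 0.00652), and in GMP its difference was -0.011 (limma, adjusted p = 0.995). The direction in ST-HSC was therefore the same with both probe sets, with a smaller fold of 4.77 from the second.

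The difference between the populations, taken as the GMP difference minus the ST-HSC difference, was -3.97 (SE 0.60, interval -5.29 to -2.65) for the leading probe set. Its unadjusted p was 4.42e-05 and its adjusted p 0.0642 in limma, so that it did not pass the threshold. For the second probe set it was -2.26 (limma, adjusted p = 0.164). With all arrays left in, it passed when low probe sets were filtered out (adjusted p = 0.0423) and when the probe sets of a gene were averaged (adjusted p = 0.0484). In ST-HSC itself the S100a16 difference stayed between 2.25 and 3.97 under every alternative run, with limma adjusted p from 0.000774 to 0.0157. SAM at a median of 0 false calls, which called 41 probe sets higher in KI ST-HSC, did not call the leading probe set.

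S100a16 lies in the S100 gene cluster of chromosome 3, between S100a14 and S100a3 among the S100 genes. Along that chromosome RefSeq places 15 S100a genes, in the order S100a1, S100a13, S100a14, S100a16, S100a3, S100a2, S100a4, S100a5, S100a6, S100a7a, S100a8, S100a9, S100a7l2, S100a11 and S100a10, of which 12 were measured. S100a14, on one side of S100a16, had an ST-HSC difference of -0.54 (limma, adjusted p = 0.323), and S100a3, on the other, one of -0.17 (limma, adjusted p = 0.714). Neither neighbour passed the test. S100a3 read 2.96 to 3.21 in ST-HSC and S100a14 3.82 to 4.86, and the KI and WT arrays of S100a14 overlapped. Neither was shown to be above background, so whether the neighbours follow S100a16 cannot be read from them.

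**Figure D2:**
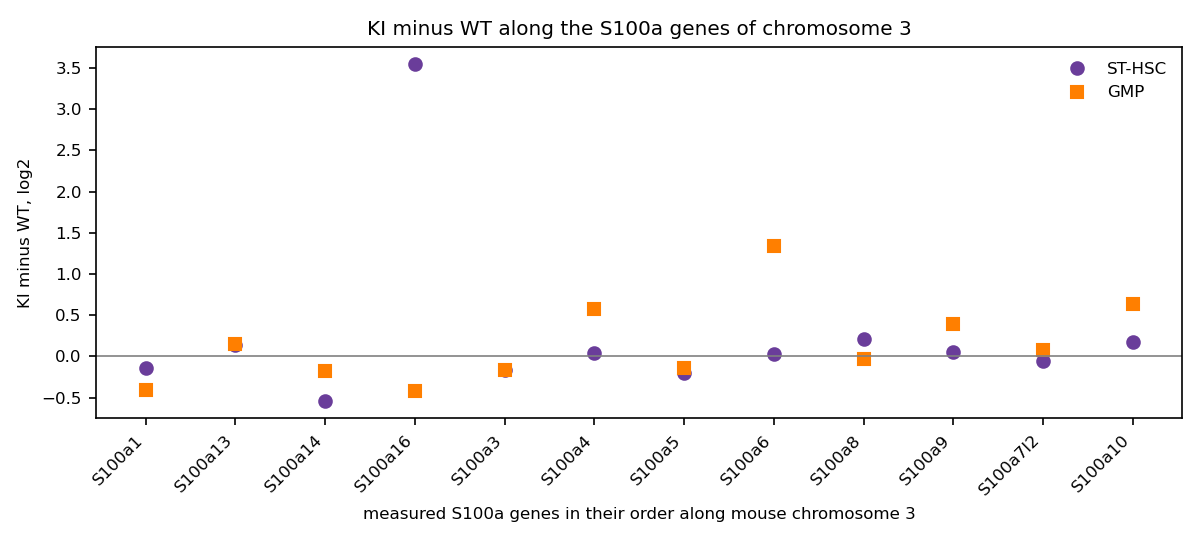
KI minus WT difference (log2) of the 12 measured S100a genes in their order along mouse chromosome 3, in ST-HSC (circles) and GMP (squares), from the leading probe set of each gene. S100a16 in ST-HSC stands at 3.55, and its neighbours S100a14 and S100a3, not shown to be above background, at -0.54 and -0.17.

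RefSeq lists 2 transcription starts of S100a16, and the 250 bases before each are shown because this gene had the family's largest difference in PU.1 mutant cells. They lie on the + strand of GRCm38.p6 at chr3:90537004-90537253 and chr3:90540896-90541145. Capitals mark matches on either strand to the PU.1 core GAGGAA or to the AP-1 motif TGANTCA.
S100a16 upstream start: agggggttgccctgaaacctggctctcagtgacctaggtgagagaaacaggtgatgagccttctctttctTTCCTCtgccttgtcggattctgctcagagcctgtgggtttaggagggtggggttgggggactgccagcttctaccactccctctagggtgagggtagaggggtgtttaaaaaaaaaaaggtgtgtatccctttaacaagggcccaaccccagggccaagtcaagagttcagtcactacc
S100a16 downstream start: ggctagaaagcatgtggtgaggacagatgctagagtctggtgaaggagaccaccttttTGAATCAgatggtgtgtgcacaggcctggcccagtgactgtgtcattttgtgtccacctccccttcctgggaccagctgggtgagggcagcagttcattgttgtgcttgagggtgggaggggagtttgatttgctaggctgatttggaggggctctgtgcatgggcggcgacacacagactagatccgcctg
The first window held 1 match to the PU.1 core, read as TTCCTC on the printed strand, 180 to 175 bases before the start. The second held 1 AP-1 match, TGAATCA, 192 to 186 bases before its start. Over 32851 windows of the same length before RefSeq starts, 23.3% held the PU.1 core and 6.75% held TGANTCA, so that both matches are letters that many windows carry. Neither window held the longer AP-1 motif TGANNTCA (in 11.9% of windows) or the C/EBP motif TTNNGNAA (in 36.8%).

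The 3 genes closest to S100a16 in pattern, after each gene's mean within each population was subtracted, were Rnd2, Gem and C1qtnf7. Their root mean square distances over the 12 arrays, among 18185 genes, were 0.61, 0.63 and 0.67 log2 units. The level of a gene and its gap between populations played no part in this choice. Rnd2 and Gem encode small GTP-binding proteins. All 3 were called higher in KI ST-HSC, by 2.23, 2.56 and 2.25 on the log2 scale (limma, adjusted p = 0.00429, 0.00871 and 0.0183), whereas their GMP differences were -0.016, 0.35 and 0.11 and were not called. They were chosen for their closeness on these arrays, so this agreement describes the choice.

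Marker lists of other lineages also moved in KI ST-HSC. Of the erythroid list 4 of 10 measured genes were called higher (Car1, Alas2, Rhag and Ermap), of the mast cell and basophil list 4 of 8 (Cpa3, Mcpt8, Gata2 and Hdc) and of the megakaryocyte and platelet list 2 of 8 (Pf4 and Gp1bb). Of all genes 1.33% were called higher and 1.68% lower in KI ST-HSC. Within the mast cell and basophil list Ms4a2 and Tpsb2 had differences of the opposite sign, -2.51 and -0.68 (limma, adjusted p = 0.196 and 0.479). So did Slc4a1 and Hba-a1 in the erythroid list, at -0.86 and -0.21. In the megakaryocyte and platelet list Ppbp, Gp6 and Gp9 were at -0.30, -0.027 and -0.011. None of these was called. Of the monocyte and macrophage list 7 of 15 were called lower, of which Csf1r, the receptor of the macrophage growth factor, fell by 7.10 and Irf8 fell by 6.30 on the log2 scale (limma, adjusted p = 0.00149 and 3.66e-05). The summed level of the mast cell and basophil list, the log2 of its added signals, was 12.59 to 12.77 in KI and 9.98 to 11.51 in WT ST-HSC. That of the erythroid list was 12.63 to 12.92 against 11.95 to 12.17, that of the megakaryocyte and platelet list 9.99 to 10.53 against 8.47 to 9.13, and that of the monocyte and macrophage list 9.61 to 9.71 against 13.62 to 14.30. The erythroid sum rests mostly on the bright gene Car2, which differed by 0.40 and was not called (limma, adjusted p = 0.349). The part of these cell types in the S100a16 difference was not tested.

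S100a10, also called p11, is the S100 protein that has lost calcium binding and is held in a complex with annexin A2 at the plasma membrane. Its leading probe set, 1456642_x_at, read 13.15, 12.82 and 12.83 in KI GMP and 12.10, 12.51 and 12.27 in WT GMP. The KI GMP arrays all lay above the WT GMP arrays. In KI ST-HSC it read 12.93, 13.08 and 13.01 and in WT ST-HSC 12.77, 12.87 and 12.87, where KI was above WT on every array by a smaller margin. The signal lay at percentile 98.8 or higher of every array. The GMP difference of 0.64 (SE 0.14, 95% confidence interval 0.32 to 0.95) is a fold of 1.56 and passed the threshold narrowly (limma, adjusted p = 0.0495). The ST-HSC difference of 0.17 had an interval of -0.145 to 0.49 (limma, adjusted p = 0.709).

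A second S100a10 probe set, 1416762_at, read 10.30, 9.48 and 9.71 in KI GMP and 8.67, 9.29 and 8.40 in WT GMP. Its difference of 1.04 (SE 0.24), a fold of 2.06, had the same direction without overlap of the arrays and fell just outside the threshold (limma, adjusted p = 0.0591). The third, 1439348_at, was a dim set at 2.31 to 5.19 over all arrays. It differed by 0.86 in GMP (limma, adjusted p = 0.355) and by 1.38 in ST-HSC (limma, adjusted p = 0.126). All 3 probe sets were higher on average in KI in both populations. The difference of the populations for the leading set was 0.47 (limma, unadjusted p = 0.0414, adjusted p = 0.609). The GMP call did not hold when 1 array was left out in 11 of 12 cases, the exception being WT GMP replicate 2 (adjusted p = 0.0385), nor with the Xist level as a covariate (difference 0.52, adjusted p = 0.198). Xist was low on every KI array and, in WT, on replicate 2 alone, so the covariate rested on that WT replicate. The GMP difference itself stayed between 0.52 and 1.04 under every alternative.

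Annexins are the main membrane-bound partners of S100 proteins, S100a10 pairing with Anxa2 and S100a11 with Anxa1. Anxa2 read 10.30, 10.04 and 10.21 in KI GMP and 9.29, 9.15 and 9.39 in WT GMP, without overlap. It was higher in KI GMP by 0.91 on the log2 scale (SE 0.14; limma, adjusted p = 0.00971). In ST-HSC its difference was 0.29 (limma, adjusted p = 0.437), and the difference of the populations was 0.62 (limma, adjusted p = 0.418). Anxa1 read 11.68, 11.50 and 11.29 in KI ST-HSC and 10.54, 10.07 and 10.37 in WT ST-HSC. It was higher in KI ST-HSC by 1.16 (SE 0.19; limma, adjusted p = 0.0106), while its GMP difference of 0.81 was not called (limma, adjusted p = 0.0626).

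**Figure D3:**
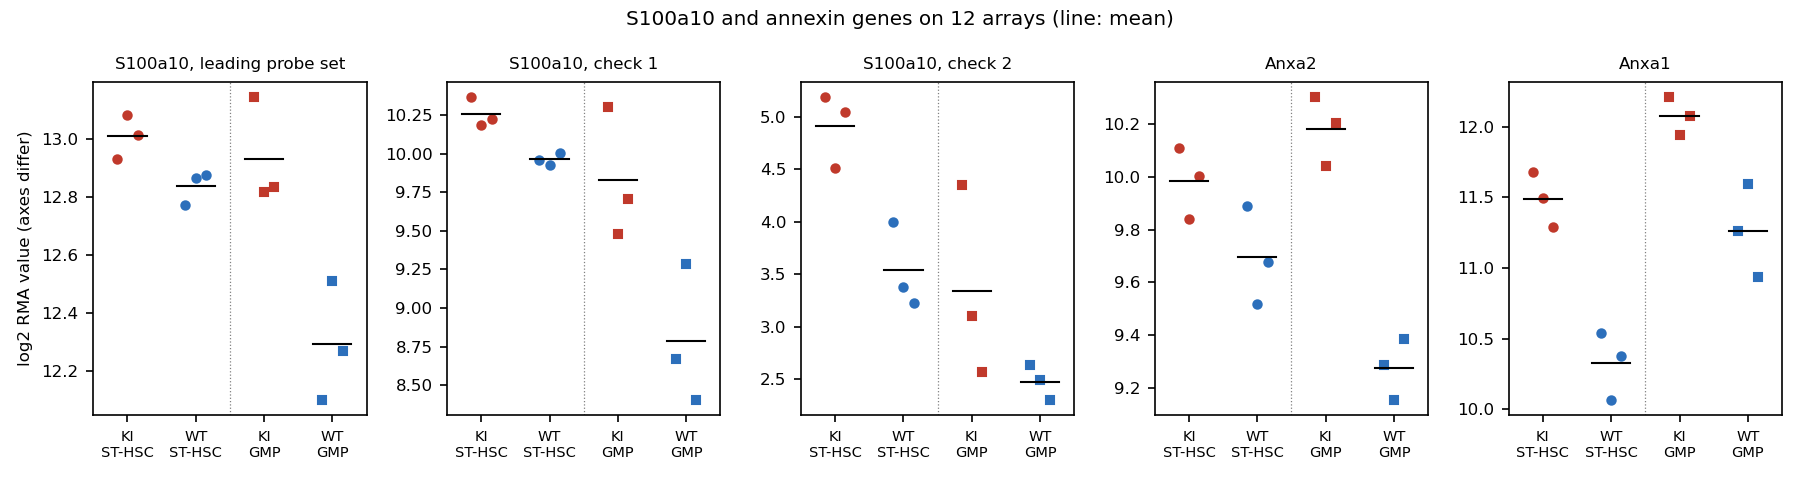
Log2 RMA values of the 3 probe sets of S100a10 and of Anxa2 and Anxa1 on the 12 arrays, with 3 replicates (points) and their mean (line) in KI (red) and WT (blue) ST-HSC (circles) and GMP (squares); the axes differ between panels and do not start at 0. In GMP all KI arrays lie above all WT arrays for the first 2 S100a10 sets, Anxa2 and Anxa1, and the third S100a10 set overlaps.

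Over the list of S100 binding partners, 10 genes were measured, of which 1 was called higher in each population, Anxa1 and Anxa2 respectively, and 0 lower. The list median was -0.039 in ST-HSC and 0.011 in GMP. Myh9, the non-muscle myosin heavy chain bound by S100a4, differed by 1.12 in ST-HSC and by 0.93 in GMP, and neither was called (limma, adjusted p = 0.12 and 0.185). Cacybp, the calcyclin-binding protein named for its binding to S100a6, differed by 0.011 and -0.47 (limma, adjusted p = 0.985 and 0.13). Ahnak, a scaffold held at the membrane by S100a10 and annexin A2, differed by -1.78 in ST-HSC and 0.65 in GMP (limma, adjusted p = 0.25 and 0.748). Fgf1 and Il1a, whose release S100a13 assists, differed by 0.175 or less in size in either population. Both were dim, at 3.30 to 4.12 and 2.38 to 2.90 over all arrays, and were not shown to be above background.

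In GMP, beside the S100a10 difference, 6 of 15 monocyte and macrophage markers were called lower, 2 of 8 mast cell and basophil markers higher (Cpa3 and Cma1) and 1 lower (Ms4a2). Of the stromal and fibroblast list 1 of 7 was called higher, Dcn, and of the endothelial list 1 of 7, Pecam1, and of the megakaryocyte and platelet list 1 of 8, Gp1bb. The shares of all genes called in KI GMP were 1.19% higher and 1.4% lower. The summed level of the monocyte and macrophage list was 10.10 to 10.84 in KI GMP and 12.67 to 12.93 in WT GMP. That of the stromal and fibroblast list was 9.81 to 10.23 in KI and 8.34 to 8.46 in WT, and that of the endothelial list 9.66 to 10.42 and 8.40 to 8.78. These sums rest mostly on bright genes, Pdgfrb (difference 1.73, not called) and Dcn (3.25) in the first list and Pecam1 (1.79) in the second. The list medians of KI minus WT were -0.166 and -0.134. Col1a1, Col1a2, Acta2 and Lum were lower in KI GMP, as were Cdh5, Emcn, Stab2 and Lyve1, and none of these was called. The mast cell and basophil list was at 13.38 to 13.76 in KI and 12.29 to 13.26 in WT GMP, the erythroid list at 9.95 to 10.46 and 8.63 to 9.87, and the megakaryocyte and platelet list at 8.94 to 9.66 and 8.32 to 8.75. The median differences of these lists were 0.916, 0.147 and -0.071. Of the erythroid list 0 of 10 were called in GMP. In the megakaryocyte and platelet list Pf4, Vwf, Gp9 and Gp6 were lower in KI GMP and were not called. The part of all these lists in the S100a10 difference was not tested.

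The 3 genes closest to S100a10 in pattern over the 12 arrays, again after each gene's population means were subtracted, were Spag6l, Ndfip1 and Slc22a2. Their root mean square distances were 0.11, 0.11 and 0.12. Ndfip1, an adaptor of Nedd4-type ubiquitin ligases, was called higher in KI GMP, by 0.72 on the log2 scale (limma, adjusted p = 0.00664). Spag6l and Slc22a2 were not called in either population. These genes too were chosen for their closeness on these arrays, so the Ndfip1 call describes the choice.

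S100a8 and S100a9 are stored together in the cytosol of neutrophils and monocytes and are released at sites of inflammation. Both genes lay at percentile 81.8 or higher of every array. S100a8 (1419394_s_at) read 10.86, 10.53 and 8.38 in KI ST-HSC and 10.21, 10.65 and 8.25 in WT ST-HSC. In KI GMP it read 12.17, 11.21 and 10.25, and in WT GMP 10.91, 11.76 and 11.05. KI and WT overlapped in both populations. S100a9 (1448756_at) read 10.95, 10.56 and 8.68 in KI ST-HSC and 10.53, 10.96 and 8.52 in WT ST-HSC. In KI GMP it read 12.52, 11.01 and 10.75, and in WT GMP 11.05, 11.19 and 10.86. The pattern over the arrays was close to that of S100a8, with S100a9 minus S100a8 between -0.56 and 0.495 within an array.

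The S100a8 difference was 0.21 in ST-HSC and -0.028 in GMP (limma, adjusted p = 0.951 and 0.994). That of S100a9 was 0.058 and 0.39 (limma, adjusted p = 0.986 and 0.892). The 95% confidence intervals were wide, from -1.48 to 1.91 for S100a8 and from -1.55 to 1.67 for S100a9 in ST-HSC, and from -1.73 to 1.67 and from -1.22 to 2.0 in GMP. These intervals are for a single probe set, and a call over all probe sets required a larger difference relative to its SE. The S100a9 difference in GMP rested on KI GMP replicate 1, at 12.52, and was -0.16 without it. That array also stood apart in some granule genes of later neutrophils, but not in all. Camp read 11.19 there, against 6.86 and 8.58 in the other KI GMP arrays. Ngp read 9.94 against 5.67 and 6.33, and Mmp8 read 7.20 against 4.19 and 4.45. Fcnb, Lcn2 and Ltf were also highest there among the KI GMP arrays, by smaller margins. Mmp9 and Chil3 lay between the values of the other KI GMP arrays. The part of these genes in the S100a9 value was not tested. The SD of S100a8 was 1.35 in KI and 1.28 in WT ST-HSC, and 0.96 in KI and 0.45 in WT GMP.

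The spread in ST-HSC came from replicate 3 of both genotypes. It was lower than the mean of replicates 1 and 2 by a log2 difference of -2.32 in KI and -2.18 in WT for S100a8, and of -2.08 and -2.22 for S100a9. Other members did not follow, since S100a4 and S100a6 were highest in replicate 3 of KI ST-HSC. Elane, neutrophil elastase of the primary granules, was lower in replicate 3 as well, by -1.09 in KI and -1.16 in WT. Mpo, myeloperoxidase, moved by -0.036 and -0.35, and Camp, a granule peptide of later neutrophils, by 0.14 and -1.20. Replicate 3 was the lowest of its group in both genotypes for 4 of 14 granulocyte markers (28.6%), and for 10.2% of all genes. It was so for 3 of 8 genes of the mast cell and basophil list, 3 of 8 of the megakaryocyte and platelet list, 3 of 10 of the erythroid list and 1 of 15 of the monocyte and macrophage list. What set replicate 3 apart was not tested. Without replicate 3 of both ST-HSC groups, neither gene was called.

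**Figure D4:**
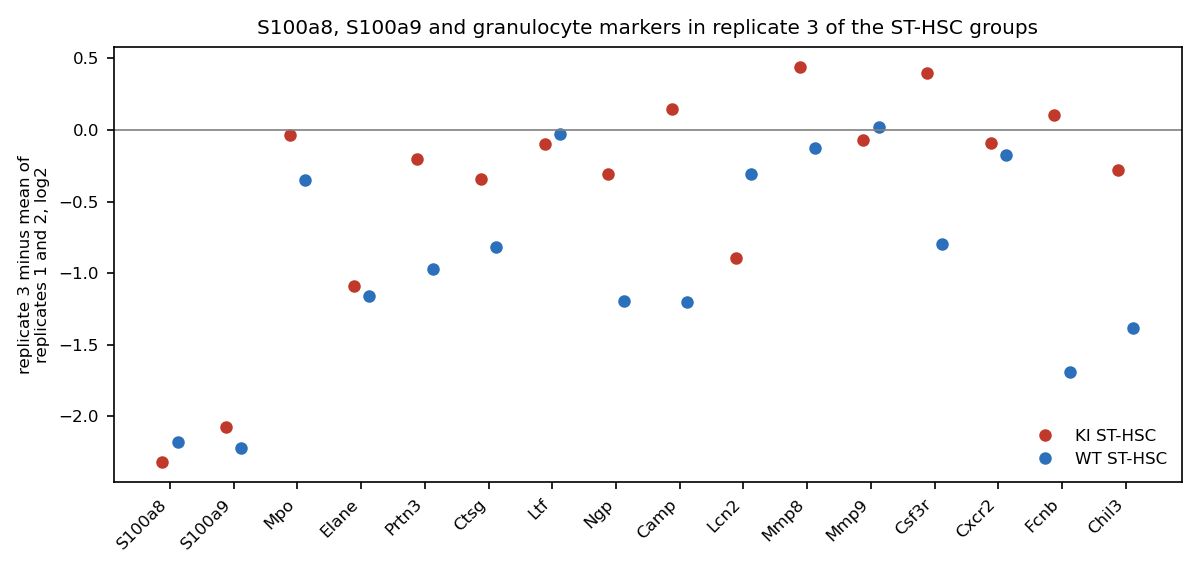
Replicate 3 minus the mean of replicates 1 and 2 (log2) in KI (red) and WT (blue) ST-HSC, for S100a8, S100a9 and the 14 granulocyte markers. S100a8 and S100a9 lie between -2.32 and -2.08, Elane at -1.09 and -1.16, and the other markers between -0.90 and 0.44 in KI and between -1.69 and 0.022 in WT.

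The 250 bases before the RefSeq starts of S100a8 and S100a9 are shown because the 2 genes followed each other across the arrays. S100a8 lies on the + strand at chr3:90668821-90669070 and S100a9 on the - strand at chr3:90695722-90695971 of GRCm38.p6. Capitals mark matches on either strand to GAGGAA (PU.1) or TTNNGNAA (C/EBP), and neither AP-1 motif occurred.
S100a8: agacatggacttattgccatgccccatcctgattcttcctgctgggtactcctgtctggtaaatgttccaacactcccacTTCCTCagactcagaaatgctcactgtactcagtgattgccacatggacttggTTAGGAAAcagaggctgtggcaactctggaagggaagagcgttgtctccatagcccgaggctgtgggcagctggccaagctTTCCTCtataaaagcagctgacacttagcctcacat
S100a9: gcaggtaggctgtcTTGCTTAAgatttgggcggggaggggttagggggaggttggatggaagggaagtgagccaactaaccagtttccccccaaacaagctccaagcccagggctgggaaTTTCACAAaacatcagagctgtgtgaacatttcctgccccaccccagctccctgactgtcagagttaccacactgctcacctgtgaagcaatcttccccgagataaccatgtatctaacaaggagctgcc
The S100a8 window held 2 matches to the PU.1 core, at 170 to 165 and at 36 to 31 bases before the start, and 1 C/EBP match, TTAGGAAA, at 117 to 110. The S100a9 window held no PU.1 core and 2 C/EBP matches, TTGCTTAA at 236 to 229 and TTTCACAA at 130 to 123. Each of the 2 windows held a C/EBP match, a motif found in 36.8% of all windows, and they differed in the PU.1 core. Of the 9 members 8 had an entry, and S100a10 had none. The PU.1 core occurred before 3 of these 8 genes (S100a8, S100a11 and S100a16), the shorter AP-1 motif before 2 (S100a11 and S100a16) and the C/EBP motif before 2 (S100a8 and S100a9). Counted by window, these were 3, 2 and 2 of 9, where 23.3%, 6.75% and 36.8% of all windows held the motif.

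The granulocyte markers, measured in the same cells as the calprotectin pair, gave 0 of 14 calls in ST-HSC in limma, where 4 higher and 0 lower reached an unadjusted p under 0.05. In GMP 2 of 14 were called lower, Ltf (lactoferrin) by 1.43 and Chil3 by 3.64 on the log2 scale (limma, adjusted p = 0.0127 and 0.0132). There 0 higher and 5 lower reached an unadjusted p under 0.05 in limma. The summed level of the list was 14.21 to 14.51 in KI and 13.51 to 14.24 in WT ST-HSC. In GMP it was 14.50 to 14.81 in KI and 14.92 to 14.97 in WT. Whether the calprotectin genes differ from these markers in their response was not tested.

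Of the 6 measured receptor genes of calprotectin, 1 was called lower in each population and 0 higher. Tlr4, the toll-like receptor that S100a8 activates, read 2.55, 4.72 and 2.64 in KI GMP and 7.57, 7.72 and 6.76 in WT GMP. It fell by 4.05 on the log2 scale (SE 0.60; limma, adjusted p = 0.00749), a size that depends on KI signals not shown to be above background. In ST-HSC its difference of -2.61 fell just outside the threshold (limma, adjusted p = 0.0552), again without overlap of the arrays. Cd36, a scavenger receptor that takes up arachidonic acid carried by the pair, read 3.89, 3.71 and 3.40 in KI ST-HSC and 6.76, 7.18 and 9.73 in WT ST-HSC. It fell by 4.22 on the log2 scale (SE 0.70; limma, adjusted p = 0.0104), and its GMP difference was -1.23 (limma, adjusted p = 0.486). Ager, the receptor for advanced glycation end products, differed by 0.11 in ST-HSC and 0.76 in GMP and was not called (limma, adjusted p = 0.906 and 0.11). Ly96 and Cd14, partners of Tlr4 at the membrane, differed by 1.01 and -0.76 in GMP (limma, unadjusted p = 0.0398 and 0.0474, adjusted p = 0.313 and 0.339), and neither was called. At an unadjusted p under 0.05 in limma, 2 receptor genes were higher and 2 lower in GMP, and 0 were higher and 2 lower in ST-HSC. In the same arrays 6 of 15 monocyte and macrophage markers were called lower in GMP and 7 of 15 in ST-HSC, and their part in the receptor differences was not tested.

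S100a4 and S100a6 are neighbours in the cluster, with S100a5 between them, and are linked to cell motility and proliferation. S100a4 (1424542_at) read 8.58, 9.23 and 9.98 in KI ST-HSC and 9.86, 8.33 and 9.48 in WT ST-HSC. In KI GMP it read 5.81, 5.93 and 5.08, and in WT GMP 5.65, 3.12 and 6.31. The 6 GMP arrays lay below the 6 ST-HSC arrays, a gap that was not tested because the populations do not share a distribution, while KI and WT overlapped within each population. The KI minus WT difference was 0.040 in ST-HSC and 0.58 in GMP (limma, adjusted p = 0.99 and 0.822), with intervals of -1.58 to 1.67 and -1.05 to 2.20. WT GMP replicate 2, at 3.12, decided the sign in GMP, which was -0.37 without it.

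S100a6 (1421375_a_at) read 7.11, 6.67 and 7.31 in KI GMP and 5.61, 4.88 and 6.56 in WT GMP. All KI GMP arrays lay above the WT GMP arrays. The difference of 1.34 (SE 0.46, 95% confidence interval 0.32 to 2.37) had an unadjusted p of 0.0152 and was not called in limma (adjusted p = 0.193). In ST-HSC it read 7.84, 8.39 and 8.47 in KI and 8.52, 7.27 and 8.84 in WT, with a difference of 0.024 (limma, adjusted p = 0.991). The difference of the populations was 1.32 (limma, adjusted p = 0.688). With the Xist level as a covariate the GMP difference was 2.24 and passed the threshold (limma, adjusted p = 0.0161), and in all other alternatives it did not. Xist was low on every KI array and, in WT, on replicate 2 alone, so the covariate rested on that WT replicate. Replicate 2 was also the lowest WT array for S100a6 in each population. Without WT GMP replicate 2 the GMP difference was 0.94.

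S100a1, known best from heart and skeletal muscle, and S100a13, a copper-binding member that aids the release of proteins lacking a signal peptide, are neighbours transcribed in opposite directions, on the - and the + strand. S100a1 (1419814_s_at) read 8.21, 7.87 and 8.07 in KI ST-HSC and 8.12, 7.34 and 9.12 in WT ST-HSC. In KI GMP it read 8.97, 8.82 and 8.23, and in WT GMP 9.09, 9.25 and 8.89. Its differences of -0.14 in ST-HSC and -0.40 in GMP were not called (limma, adjusted p = 0.933 and 0.72). The check set, 1417421_at, gave 0.59 in ST-HSC (limma, adjusted p = 0.528), opposite in sign to the leading set, and -0.076 in GMP. For S100a1 in ST-HSC no direction is given. S100a13 (1418704_at) read 7.79 to 8.32 in the 6 ST-HSC arrays and 7.65 to 8.63 in the 6 GMP arrays. Its differences were 0.14 and 0.15 (limma, adjusted p = 0.875 and 0.853), with intervals of -0.36 to 0.65 in ST-HSC and -0.35 to 0.66 in GMP.

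**Figure D5:**
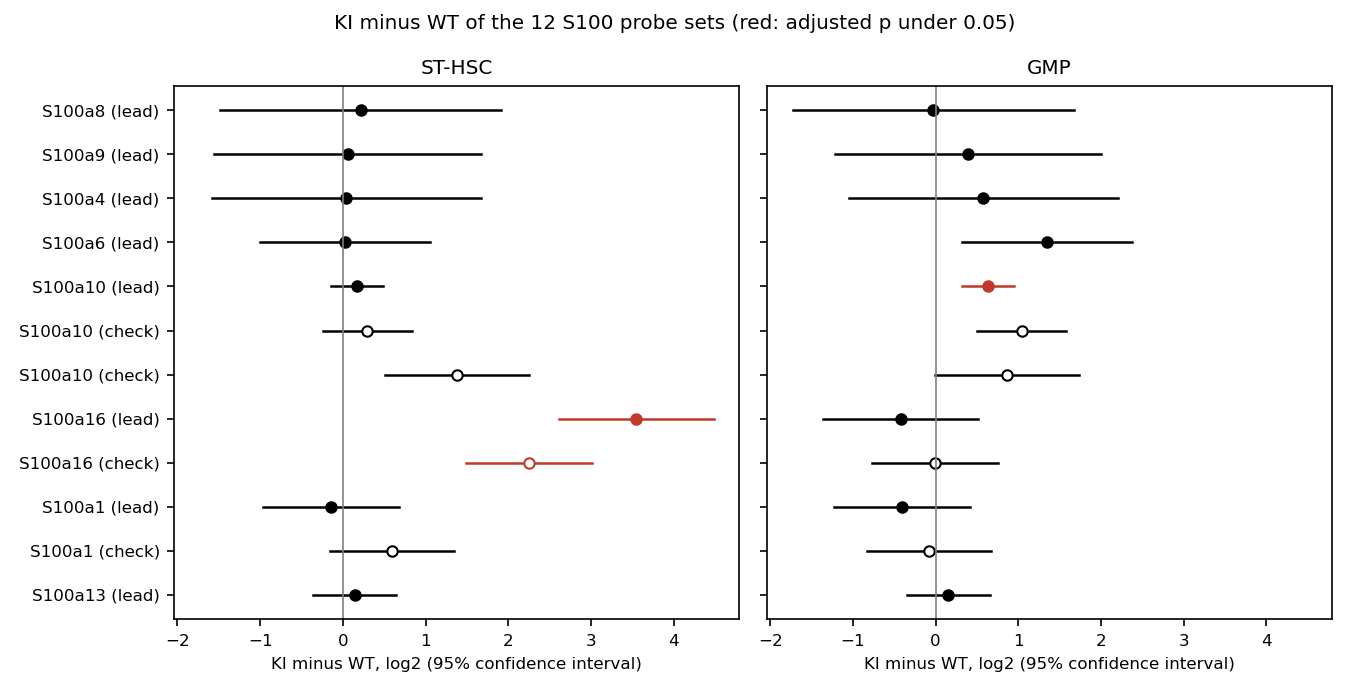
KI minus WT difference (log2, points) with its 95% confidence interval (lines, each for a single probe set) of the 12 S100 probe sets in ST-HSC (left) and GMP (right); filled points are leading and open points check probe sets, red marks an adjusted p under 0.05. Both S100a16 sets are red in ST-HSC, at 3.55 and 2.25, and the leading S100a10 set in GMP, at 0.64.

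Of 10 further S100-related genes, 7 had a probe set of their own, namely S100a3, S100a5, S100a7l2, S100a14, S100b, S100g and S100pbp, the last of which encodes a protein that binds S100P and is not itself an S100 protein. In limma 0 of 7 were called in either population, and S100a14 alone reached an unadjusted p under 0.05, lower in KI ST-HSC. Their median difference was -0.17 in ST-HSC and -0.13 in GMP. The levels of S100a3, S100a5, S100a7l2, S100a14, S100b and S100g lay between 2.29 and 5.00 on all arrays.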

How the data were processed

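RNA of sorted ST-HSC and GMP was amplified linearly from 10 ng per sample, labeled with biotin and hybridized to Affymetrix MG430v2 arrays, 1 per sample. The deposited values are log2 values that the authors normalized by RMA in R-Bioconductor (version not given in the sources used here), a procedure that aligns array distributions and compresses small differences at low signal. Arrays carry no read depth, and their number limits the precision. Here 64 control probe sets were left out and 45037 tested without a filter. Groups came from the sample records. KI minus WT within each population and the difference of these differences were estimated by limma (version 3.58.1, R 4.3.3) from 4 group means of 12 arrays (residual degrees of freedom 8, prior 2.52), and p-values were adjusted for all probe sets by Benjamini-Hochberg. The script was tested on simulated data. Members and gene lists were chosen with earlier results of these data known. All 8 measured members were named, with list genes that were called or that bind a member. Promoters and gene order are those of RefSeq on GRCm38.p6; no protein sequences were used. Alternatives covered the arrays fitted, normalization, filters, probe set choice, Xist as covariate, SAM (20 assignments), the replicate block and omission of arrays; omitting replicate 3 of both ST-HSC groups was added after the data were seen.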

Additional observations from a re-analysis of the deposited data

How the results depend on the processing

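Of 467 recomputed differences of single S100 genes over 25 alternatives, 415 kept their direction and their side of the threshold, and 28 changed sign, none of which had passed the test. The S100a16 call in ST-HSC was lost with SAM alone, which left 0 members called higher there. The S100a10 call in GMP was lost, leaving 0 members called higher, with only the 6 arrays of the population (adjusted p = 0.216), centring on array medians (0.063), the replicate block (0.17), averaging over a gene's probe sets (0.0532), the omission of probe sets ending in _x_at or _s_at (0.0615), a limit of 1 on the log2 difference, SAM, and the omission of replicate 3 of both ST-HSC groups (0.107). With the Xist covariate (0.198) it was lost too, and S100a6 was the member called instead. That covariate nearly follows genotype and rested on WT replicate 2, the only WT replicate low in Xist. Leaving out each array in turn gave between 0 and 1 members called higher in GMP. The difference of the populations counted 1 member lower, S100a16, with the filter on low values and with averaged probe sets.

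Same-numbered KI and WT samples deviated with correlations of 0.034 to 0.074 in ST-HSC and -0.038 to -0.004 in GMP. Samples of different number gave -0.061 to 0.016 in ST-HSC and -0.029 to 0.041 in GMP. In ST-HSC the same-number values were thus small but all above the others, and a factor shared by samples of one number was not tested. The main fit did not treat samples of one number as pairs. The replicate block changed no call of a member other than S100a10.

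In ST-HSC the sign turned for S100a1 with averaged probe sets (0.225), without _x_at and _s_at sets (0.591), with the Xist covariate (0.216) and without replicate 3 of both groups (0.31), and for S100a4 with the last of these (-0.189). It turned for S100a6 with median centring (-0.016), and for S100a8 and S100a9 with the Xist covariate (-0.509 and -0.496). In GMP it turned for S100a8 with quantile normalization of all arrays (0.042) or within populations (0.041), and for S100a9 with the Xist covariate (-0.157). When each array was left out in turn, the ST-HSC differences ranged from -0.566 to 0.32 for S100a1, from -0.407 to 0.382 for S100a4, from -0.448 to 0.338 for S100a6, from -0.511 to 0.988 for S100a8 and from -0.682 to 0.75 for S100a9. In GMP they ranged from -0.374 to 1.22 for S100a4, from -0.508 to 0.451 for S100a8, from -0.157 to 0.727 for S100a9 and from -0.058 to 0.431 for S100a13. Apart from omissions of arrays or probe sets, the cause of these changes was not tested. With 3 arrays a group, the smallest two-sided p of an exact permutation test is 0.1.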
